A study of Rattus norvegicus with 2 samples.

Results

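Cartilage cells that carried RNA for both type II and type I collagen were examined in 2 single-cell RNA libraries from Lewis rats. They were chosen by their measured values: a cell belonged to the set if its Col2a1 level was at least 1000 CPM and its Col1a1 level at least 10000 CPM, where CPM is a gene's UMIs (unique molecular identifiers, each a counted RNA molecule) scaled to a cell total of 1e+06. 84 of 13755 cells met the rule, 62 of 5347 in the control library and 22 of 8408 in the library from rats with collagen-induced arthritis (CIA). The control rats had no treatment by their label and are called sham in the design text. The CIA rats received type II collagen with Complete Freund's Adjuvant and were collected on day 14. Both libraries came from cartilage dissociated with TrypLE at 37 °C and were made with Chromium 3' chemistry, kit version 2. Each group is 1 library, and the sources used here do not state the joint, the number of rats pooled or the control rats' day of collection. No difference below therefore has a replicate check or a p-value, and the comparison of CIA with control compares 2 libraries.

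Type II collagen, the product of Col2a1, forms the fibrils of hyaline cartilage together with collagens IX and XI, and aggrecan (Acan) fills the space between them. Type I and type III collagen (Col1a1, Col3a1) build fibrous tissue, and type I collagen is also the main collagen of bone. Cells that make both kinds are known from fibrocartilage, from dedifferentiating chondrocytes, from the perichondrium and from the zone where cartilage turns into bone. Mineral deposition in cartilage and bone depends on Alpl, which removes the mineralisation inhibitor pyrophosphate, on Phospho1 and Smpd3, which act in matrix vesicles, and on mineral-binding proteins such as bone sialoprotein (Ibsp) and osteopontin (Spp1).

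The working name of these cells was fibrochondrocyte-like, after the markers Col2a1, Col1a1, Acan and Col3a1. All 4 markers had UMIs in both libraries. Acan had a UMI in 60 of 62 control and all 22 CIA cells, against 9.84% of control and 4.72% of CIA cells with endothelial markers. A Col3a1 UMI was found in all 84 cells, but also in 100% of the endothelial cells, so its presence says nothing by itself. Compared with Col2a1 cells low in Col1a1, the named genes with the largest ratios were Wnt5b, C1qtnf3 and Panx3 in control and Ibsp, Alpl and Spp1 in CIA. Cells with Col1a1 alone, meaning Col2a1 under 1000 CPM, were the other neighbours. Against them, 10 of 18 measured fibroblast and tendon genes were lower in control members and 6 of 17 in CIA, among them Pdgfra and Postn. In control 1 was higher and in CIA none. Over all measured genes of this contrast, 7.68% were lower in control and 2.3% in CIA. Against control Col2a1 cells low in Col1a1, 10 fibroblast and tendon genes were measured: 2 were higher (Twist1, Postn) and 2 lower (Gsn, Dpt). Over all 3779 genes measured there, 5.64% were higher and 6.77% lower. Markers of late hypertrophy and of bone cells were uneven. Among control cells Col10a1 had 24 UMIs in 6 cells, Sp7 had 2 UMIs and Dmp1 had 5, all in 1 cell, while Bglap reached 7833 CPM and had UMIs in 13 cells, and 12 of 62 cells had at least 1000 CPM of Mmp13. Bglap, Sp7 and Dmp1 had 0 UMIs in the CIA cells. The set is therefore called here by its rule, Col1a1-high Col2a1 cells.

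These cells made up 1.16% of control cells (exact binomial 95% interval 0.890 to 1.48) and 0.262% of CIA cells (0.164 to 0.396). Cells with Col2a1 as a whole were 6.41% of the control library and 0.523% of the CIA library. Of the cells with at least 1000 CPM of Col2a1, 18.1% were Col1a1-high in control (62 of 343, interval 14.1 to 22.6) and 50% in CIA (22 of 44, interval 34.6 to 65.4). The intervals cover counting error only. With each cell thinned to 5000 UMIs, the shares were 18.6% (65 of 349) and 53.1% (26 of 49). With a Col1a1 limit of 5000 CPM in place of 10000 CPM, the control share was 23.9%.

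**Figure D1:**
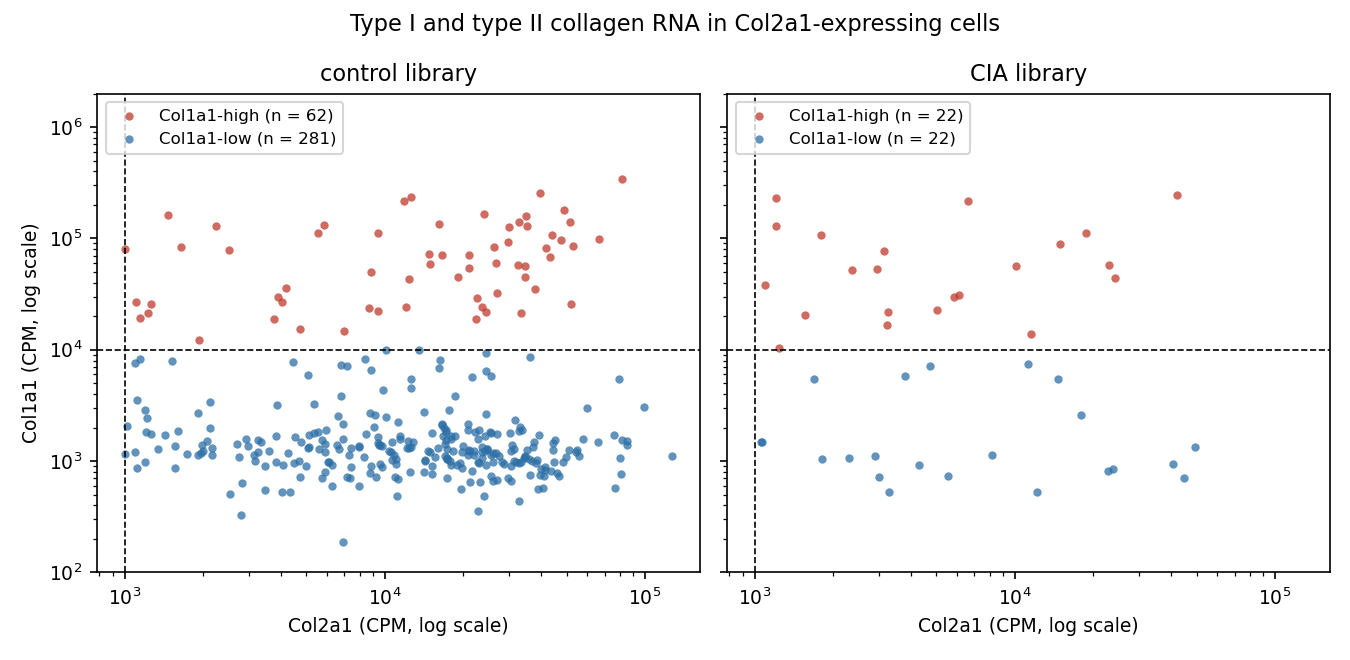
Col1a1 against Col2a1 (both in CPM, log axes) for every cell with at least 1000 CPM of Col2a1, control library on the left and CIA library on the right; dashed lines are the limits of the rule. Most of the 281 control cells under the Col1a1 limit lie near 1000 CPM of Col1a1, and the 62 cells above it spread from 12120 to 342486 CPM; in the CIA library 22 cells lie on each side.

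The values that chose the cells spanned more than an order of magnitude. Col1a1 ranged from 12120 to 342486 CPM in control members (median 64438) and from 10400 to 242676 CPM in CIA members (median 52253), so that in 1 control cell 34.2% of all UMIs were Col1a1. Col2a1 ranged from 1006 to 81372 CPM (median 20109) in control and from 1092 to 42114 CPM (median 4151) in CIA. Just outside the rule, the highest Col1a1 among the other Col2a1 cells was 9966 CPM in control and 7472 CPM in CIA, and the highest Col2a1 among the other Col1a1-high cells was 913 and 889 CPM. 1 member in each library lay within 1.25-fold of the Col1a1 limit and 4 in each within 1.25-fold of the Col2a1 limit.

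RNA free in the droplets adds UMIs to every cell. In 183 control and 127 CIA cells with endothelial markers, which should lack these genes, median Col1a1 was 1251 and 948 CPM and median Col3a1 1096 and 864 CPM, against median depths of 7176 and 6462 UMIs. Median Col2a1 was 138 CPM in control and 0 in CIA, with a UMI in 68.9% and 8.66% of the endothelial cells, and median Prg4 was 209 and 305 CPM. Median Ibsp, Alpl, Panx3, Chad, Acan and Hapln1 were 0 in both sets, but a Chad UMI occurred in 35.0% of control and 0% of CIA endothelial cells and an Ibsp UMI in 14.2% and 0%. Median Spp1 was 0 in control and 171 CPM in CIA, with a UMI in 39.9% and 77.2% of the endothelial cells. Median Mmp13 was 0 and 98.3 CPM, with a UMI in 47.0% and 53.5%. The part of free RNA in the differences between the libraries was not tested. The Col1a1 limit was reached by 6 of the 183 and 2 of the 127 endothelial cells, and the Col2a1 limit by 1 in each library. Cells with macrophage markers reached the Col1a1 limit more often: 95 of 1148 in control (8.28%) and 295 of 3294 in CIA (8.96%). Of these macrophage-marker cells, 9 in control and 2 in CIA reached the Col2a1 limit. Members were deeper than the other Col2a1 cells in control (median 15315 against 8314 UMIs) and slightly deeper in CIA (10764 against 9216). 64 control cells met the rule before filtering and 2 of them were removed as called doublets, while no CIA cell was removed. Median doublet scores of the kept control members were 0.0476, against 0.0171 in the other Col2a1 cells and 0.0321 in the other Col1a1-high cells. In CIA these medians were 0.0488, 0.0459 and 0.0295. The part of doublets that escaped the call was not tested. The libraries shared 52 of their barcodes, none of them a member.

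Macrophage markers, all 10 of them detected, summed to between 0.0299% and 0.319% of the UMIs of control members. In CIA members they summed to between 0.0979% and 7.31%, where 1 cell alone exceeded 1%; the highest Cd74 level in a CIA member was 16067 CPM and the next 565 CPM. Endothelial markers stayed at or under 0.285% in control and 0.0207% in CIA, where Cdh5, Cldn5, Tie1 and Esam were at 0. Osteoblast and osteocyte markers exceeded 1% in 23 of 62 control and 2 of 22 CIA members, with Ifitm5 at 0 in both and Bglap, Sp7, Dmp1 and Mepe at 0 in CIA. Synovial lining markers, which include Prg4, exceeded 1% in 7 control members and no CIA member, and the tendon regulator Mkx was at 0 in both. Each comparison was repeated without cells that had over 1% of macrophage, endothelial, red cell or neutrophil markers, which removed 1 CIA member.

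Members were first set against the Col2a1 cells of the same library with under 10000 CPM of Col1a1, 281 in control and 22 in CIA, here called Col1a1-low. For each side, a gene's UMIs over all cells were added up and divided by the total. A gene counted as higher or lower if the ratio was at least 2-fold, its exact 95% counting interval lay wholly beyond 1.5-fold, and the ratio stayed at least 2-fold without the cell richest in that gene. Genes under 100 UMIs in the 2 sums together were not measured. Because the rule splits these cells by Col1a1, everything in this contrast is a description.

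In the control library, 213 of 3779 measured genes were higher in the members (5.64%) and 256 were lower (6.77%), so that 45.4% of the genes past the limits were higher. With Col1a1 and Col2a1 left out of the totals, 261 were higher and 191 lower, or 57.7% higher. In the CIA library 21 of 773 genes were higher (2.72%) and 21 lower (2.72%). The genes higher in both libraries were Alpl, Aqp1, Col12a1, Col3a1, Ctsh, Ctsk, Fkbp11, Fkbp7, Ibsp, Mmp13, Pcolce, Spp1, Thbs2 and Tnn. These 14 are 17.7% of the 79 genes higher in control among those measured in both libraries, and 66.7% of the 21 higher in CIA. The 8 genes lower in both, 21.6% of 37 in control and 40% of 20 in CIA, included Chad, Ucma, Snorc, Mgp, Wif1, Ccnd1 and Serpine2. Of the 772 genes measured in both libraries, 0 were higher in 1 library and lower in the other. Without the cells rich in other-cell markers the counts were 206 higher and 240 lower in control and again 21 and 21 in CIA. The control call of Snorc was lost with Col1a1 and Col2a1 left out of the totals and at a Col1a1 limit of 20000 CPM (log2 ratios -1.01 and -1.02), and the CIA call of Aqp1 was lost at that limit.

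Genes of mineral deposition were higher in the members. In control, 5 of 7 measured bone-forming genes were higher and none lower (median log2 ratio 2.22, against 0.0031 over all genes measured); in CIA, 3 of 4 were higher (median 2.93, against -0.049). Ibsp ranged from 0 to 60407 CPM in the 62 control members (median 3705) and from 0 to 109007 CPM in the 281 Col1a1-low cells (median 0). Its summed level was 8450 CPM in members and 2586 CPM in Col1a1-low cells, a 3.27-fold difference (interval 3.17 to 3.37). The ranges overlapped: 39 of 62 members and 52 of 281 Col1a1-low cells had at least 1000 CPM, and the highest values were in Col1a1-low cells. In the CIA library Ibsp ranged from 0 to 21928 CPM in members (median 262) and from 0 to 3751 CPM in Col1a1-low cells (median 0). Its sums were 3241 and 231 CPM, a 14.0-fold difference (10.7 to 18.8), and 8 of 22 members against 2 of 22 Col1a1-low cells had at least 1000 CPM.

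Alpl encodes the tissue-nonspecific alkaline phosphatase. In control it ranged from 0 to 5975 CPM in members (median 1836) and from 0 to 14586 CPM in Col1a1-low cells (median 0), with summed levels of 2078 and 261 CPM, 7.97-fold higher (7.33 to 8.68). In CIA the range was 0 to 4664 CPM in members and 0 to 712 CPM in Col1a1-low cells, and the sums were 708 and 88.3 CPM, 8.02-fold higher (5.11 to 13.3). At least 1000 CPM was reached by 39 of 62 control members and 23 of 281 Col1a1-low cells, and by 6 of 22 CIA members and 0 of 22 Col1a1-low cells, a count that allows a share of up to 13.6%. Panx3, a channel protein of prehypertrophic chondrocytes and osteoblasts, had 1098 UMIs in 39 control members and 107 UMIs in 11 Col1a1-low cells, 25.1-fold higher (20.6 to 31.0). In CIA it had 79 UMIs in 5 members and 0 UMIs in Col1a1-low cells. Smpd3 (5.50-fold), Phospho1 (3.11-fold) and the osteocalcin gene Bglap (31.1-fold, in 13 members) were also higher in control members. Spp1 was 4.66-fold higher in control (4.38 to 4.96) and 7.29-fold in CIA (6.35 to 8.39).

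Of the hypertrophy genes, 6 of 9 were higher and S100a1 was lower in control, and 4 of 4 were higher in CIA. They overlap the bone-forming list in Ibsp, Alpl and Spp1. The collagenase Mmp13 was 4.59-fold higher in control (4.19 to 5.03) and 6.37-fold in CIA (4.80 to 8.60), but most members had little of it: the medians were 117 and 137 CPM, and 1 cell in each library reached 37580 and 24536 CPM. In cells with endothelial markers the Mmp13 medians were 0 in control and 98.3 CPM in CIA. Pth1r, the receptor through which parathyroid hormone-related protein restrains hypertrophy, was 5.86-fold higher in control (5.14 to 6.69). The largest ratio of a named gene in control belonged to Wnt5b, a Wnt ligand of the growth plate, with 94 UMIs in 30 members and 6 UMIs in 4 Col1a1-low cells (38.4-fold, 17.0 to 107). C1qtnf3 (29.8-fold), Rarres1 (21.5-fold), Rhbdl2 (12.6-fold) and the cell-cycle inhibitor Cdkn1c (8.10-fold) followed.

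**Figure D2:**
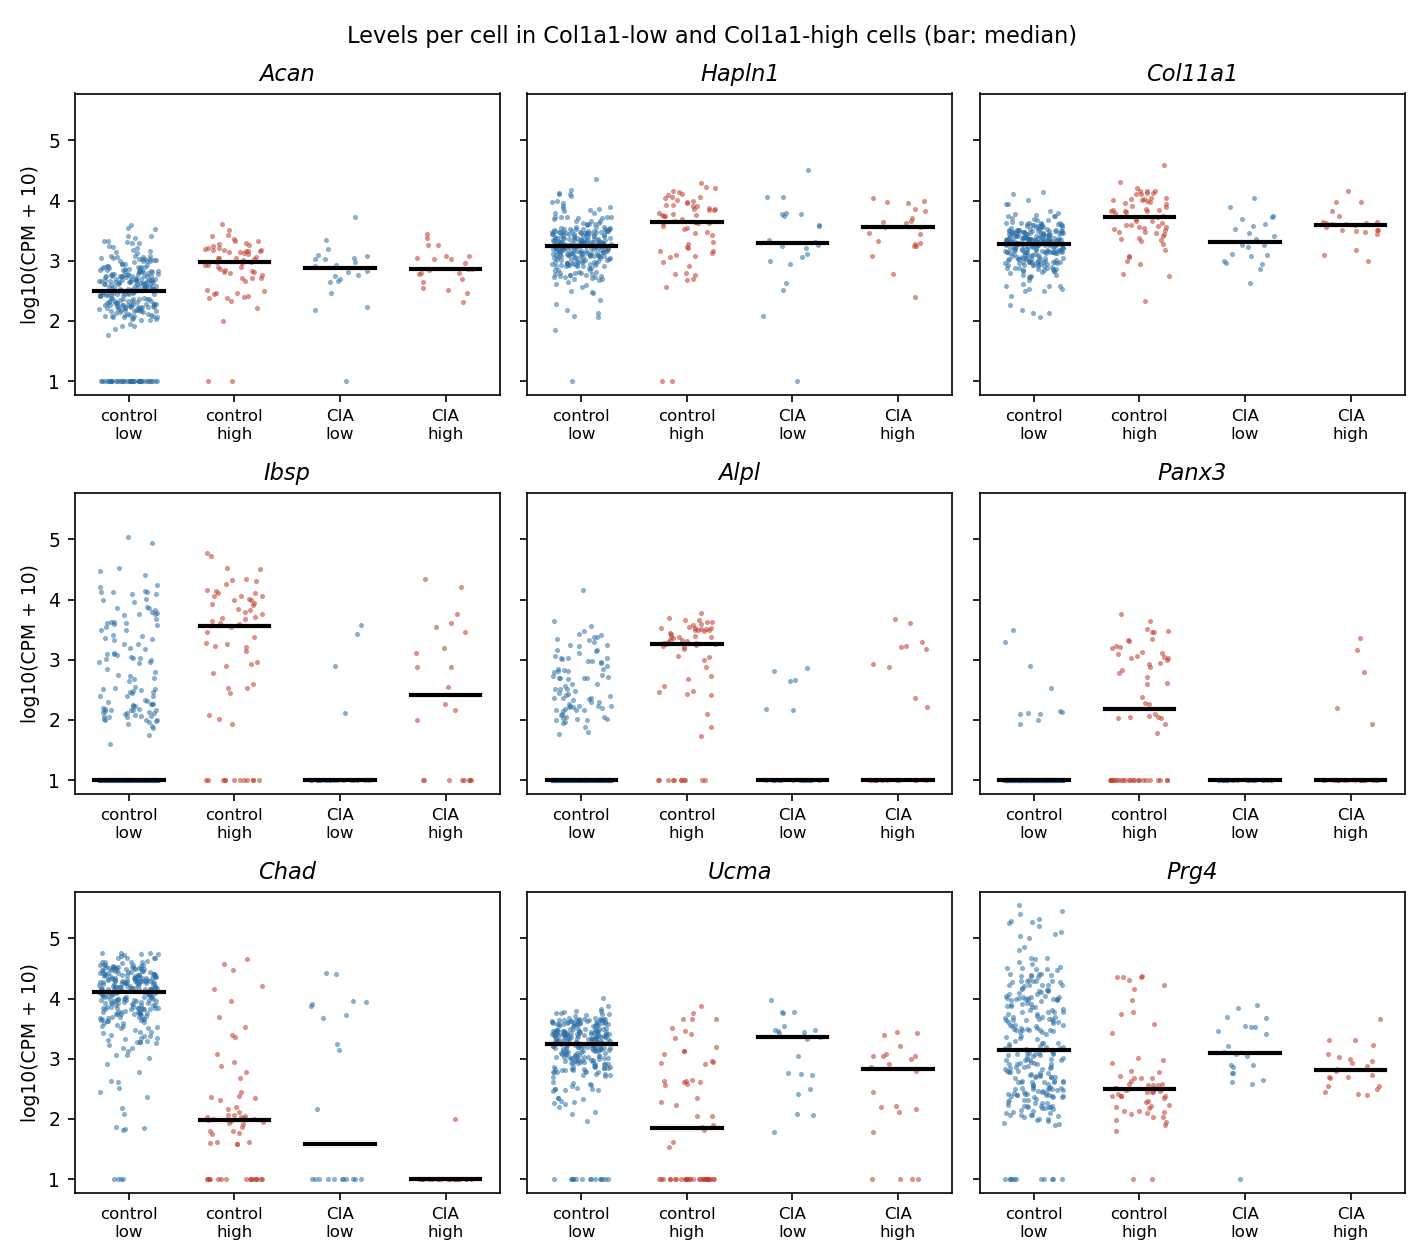
Level per cell, as log10(CPM + 10), of 9 genes in Col1a1-low and Col1a1-high Col2a1 cells of each library (281, 62, 22 and 22 cells); points are cells and bars are medians. Ibsp, Alpl and Panx3 have more high cells among the Col1a1-high cells, Chad and Ucma have fewer, and Acan, Hapln1 and Col11a1 are kept in both.

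Promoter sequences are shown for Ibsp and Chad, the named genes with the largest differences in the CIA contrast, 1 in each direction. Each line gives the 250 bases upstream of the RefSeq gene start on build GRCr8 (3 of 4 genes looked up had an entry; Panx3 is named only). Capitals mark matches on either strand to TGACGT, the core of the cAMP response element, or to CCAAT, the CCAAT box; TGTGGT, the core bound by Runx factors, was searched as well. The motifs were picked after the expression values were known.
Ibsp, chr14:5757243-5757492, minus strand: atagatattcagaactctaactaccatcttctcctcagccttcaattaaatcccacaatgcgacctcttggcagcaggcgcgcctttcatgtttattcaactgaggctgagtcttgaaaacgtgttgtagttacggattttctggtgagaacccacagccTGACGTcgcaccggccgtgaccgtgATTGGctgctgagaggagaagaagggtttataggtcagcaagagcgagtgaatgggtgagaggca
Chad, chr10:80008795-80009044, plus strand: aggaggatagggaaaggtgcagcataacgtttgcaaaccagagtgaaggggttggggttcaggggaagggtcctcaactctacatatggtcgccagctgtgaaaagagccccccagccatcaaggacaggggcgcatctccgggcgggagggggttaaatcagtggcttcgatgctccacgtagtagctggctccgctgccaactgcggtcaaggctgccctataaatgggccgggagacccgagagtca
The Ibsp window holds TGACGT starting 90 bases before the gene start and CCAAT, read as ATTGG, starting 65 bases before it. Neither window holds TGTGGT, and the Chad and Alpl windows hold none of the 3. Among 33469 windows of this length, 6.95% hold TGACGT, 34.0% hold CCAAT and 14.5% hold TGTGGT. A match is a stretch of letters and not a measured binding site.

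Fibrous matrix genes were higher in members in part: 4 of 9 in control, with 1 lower, and Col3a1 alone of 6 in CIA. Col3a1 ranged from 1486 to 42098 CPM in control members (median 6815) and from 185 to 15202 CPM in Col1a1-low cells (median 1529), 3.26-fold higher in sum (3.16 to 3.37). In CIA it ranged from 5082 to 35538 CPM (median 15467) against 566 to 8714 CPM (median 3925), 3.48-fold higher (3.26 to 3.73), and only the upper end of the Col1a1-low range overlapped the members. The genes higher in control were Col5a2, Col5a1, Col3a1 and Emilin1, and Eln was lower. Col12a1, a collagen on the surface of fibrils, was 13.2-fold higher in control (11.4 to 15.4) and 5.40-fold in CIA (4.09 to 7.26). Of 23 measured genes of collagen processing, 11 were higher and none lower in control (median log2 ratio 0.76); 2 of 14 were higher in CIA (0.40). They included Creb3l1, a transcription factor for collagen secretion (3.95-fold, 3.13 to 5.01), the procollagen C-proteinase enhancer Pcolce (3.36-fold, 3.15 to 3.58) and the collagen chaperone Serpinh1 (2.83-fold, 2.70 to 2.97).

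Cartilage genes divided within their lists. Acan ranged from 0 to 3999 CPM in control members (median 947) and from 0 to 3880.4 CPM in Col1a1-low cells (median 306), 2.43-fold higher in sum (2.24 to 2.63). In CIA the Acan medians were 719 and 742 CPM, and the sum was 1.02-fold lower in members (interval from 1.23-fold lower to 1.18-fold higher), which is within the counting error. Col9a1 (4.74-fold), Col11a2 (3.73-fold) and Col11a1 (3.38-fold) were higher in control members, which makes 3 of 6 measured cartilage collagens higher and none lower; in CIA 0 of 3 passed. The link protein Hapln1 was 2.72-fold higher in control (2.62 to 2.81) and 1.20-fold in CIA (1.09 to 1.31). Comp differed by 1.03-fold in control (0.995 to 1.07).

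More cartilage matrix proteins were lower than higher. Of 17 measured cartilage matrix proteins in control, Hapln1, Matn3 and Acan were higher and 10 were lower (7 lower with Col1a1 and Col2a1 left out of the totals), with a median log2 ratio of -1.13; in CIA 3 of 10 were lower and none higher. Chad, chondroadherin, which binds collagen and integrins, ranged from 0 to 45358 CPM in control members (median 87.7) and from 0 to 57368 CPM in Col1a1-low cells (median 12906). Its sum was 1617 against 14384 CPM, 8.89-fold lower (8.48 to 9.33), and 11 of 62 members against 264 of 281 Col1a1-low cells had at least 1000 CPM. In the CIA library Chad had 1 UMI in the 22 members and 821 UMIs in 11 Col1a1-low cells, a 974-fold difference whose interval runs from 174 to 38531. Cytl1 was 10.3-fold lower (9.10 to 11.8) and Cilp 9.69-fold lower (8.38 to 11.3) in control. The lubricin gene Prg4 was 5.61-fold lower in control (5.37 to 5.86); in CIA it was 2.02-fold lower (1.74 to 2.35) and did not pass. Ucma, a Gla protein of young chondrocytes, was 2.74-fold lower in control (2.54 to 2.95) and 2.88-fold in CIA (2.46 to 3.38).

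Of 7 measured Wnt genes in control, Wnt5b was higher and the secreted inhibitors Sfrp5, Wif1 and Frzb were lower; Wif1 was the 1 gene of the list measured in CIA. In control, Sfrp5 had 2 UMIs in members and 318 in Col1a1-low cells (64.9-fold lower, 17.8 to 538), Wif1 was 8.03-fold lower (7.16 to 9.04) and Frzb 4.29-fold lower (3.84 to 4.81). Wif1 was also lower in CIA, 8.86-fold (5.86 to 13.9). The BMP antagonist Grem1 was 15.6-fold lower in control (11.6 to 21.7), and the BMP-like ligand Gdf10 had 0 UMIs in members against 167, at least 22.7-fold lower against a floor of 3 UMIs over the group. Of 19 measured TGF-beta and BMP genes, 7 were lower and none higher in control (6 lower and 1 higher with Col1a1 and Col2a1 left out of the totals). Sox9, the master regulator of chondrocytes, was 1.78-fold lower (1.57 to 2.03), which is within the limits, while Sox5 was 2.77-fold lower (1.78 to 4.50). In CIA, the acute-phase genes Lcn2 (7.50-fold) and Chi3l1 (5.25-fold), the protease inhibitor Slpi (7.26-fold) and the mineralisation inhibitor Mgp (5.72-fold, 5.40 to 6.06) were lower in members.

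**Figure D3:**
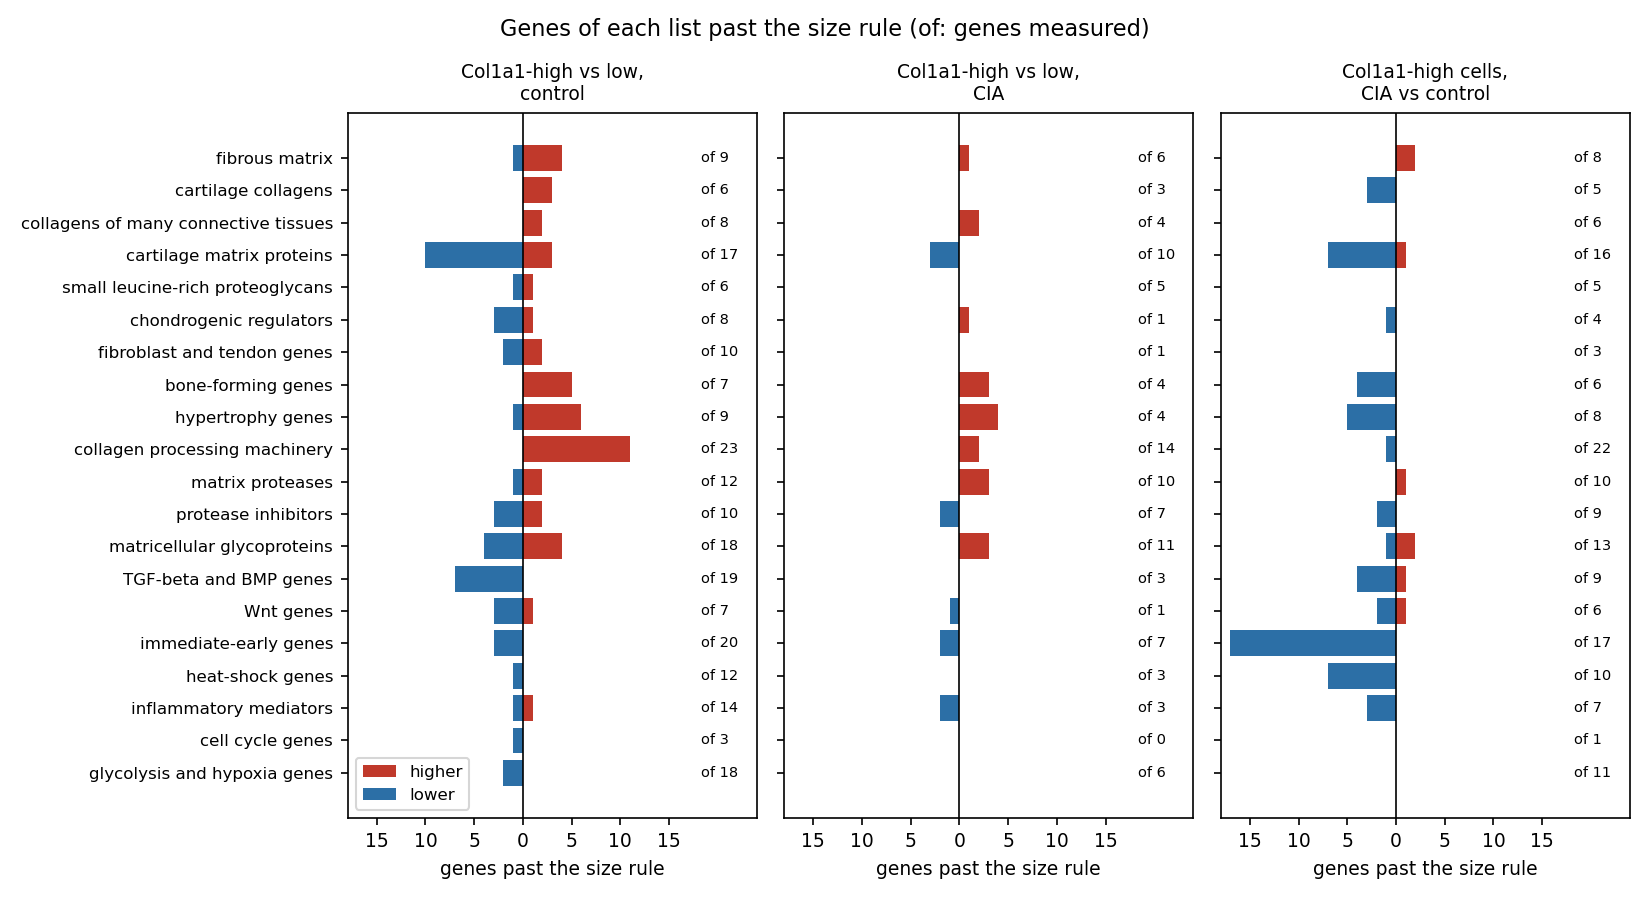
Number of genes of each of 20 lists that were higher (right, red) or lower (left, blue) by the size rule, for members against Col1a1-low cells in control and in CIA and for CIA against control members; the number at the right edge is how many genes of the list were measured. Bone-forming and hypertrophy genes lie to the right within both libraries, and all 17 measured immediate-early genes lie to the left in CIA against control.

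Members were next compared with cells that had at least 10000 CPM of Col1a1 and under 1000 CPM of Col2a1, 2365 in control and 3651 in CIA. They are called cells with Col1a1 alone, although only 528 of them in control and 3397 in CIA had 0 Col2a1 UMIs. In control 378 of 9899 genes were higher in members (3.82%) and 760 lower (7.68%), with a median log2 ratio over all genes of -0.31. With TMM factors, which scale by the bulk of the genes, 468 were higher and 557 lower, and the median was -0.12; 45.7% of the genes past the limits were then higher, against 33.2%. In CIA 209 of 10237 genes were higher (2.04%) and 235 lower (2.3%).

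Cartilage genes were higher in these cells, which the rule chose for Col2a1: all 6 measured cartilage collagens in control and all 4 in CIA. Of the cartilage matrix proteins, 14 of 18 were higher and 3 lower in control, and 8 of 13 were higher and 2 lower in CIA. Of the bone-forming genes, 5 of 9 were higher in control and 4 of 8 in CIA, and of the hypertrophy genes 7 of 10 and 5 of 10, with none lower. Ibsp was at 8450 CPM in control members and 33.1 CPM in cells with Col1a1 alone (256-fold, 240 to 272), and at 3241 against 10.2 CPM in CIA (319-fold, 285 to 358). Alpl was 86.8-fold (80.1 to 94.1) and 66.3-fold (55.9 to 78.3) higher, and Smpd3 was 378-fold higher in control (259 to 573). Sox9 was 9.42-fold higher in control (8.23 to 10.8) and 7.53-fold in CIA (5.31 to 10.4). Mmp13, in contrast, was 1.64-fold lower in control and 1.72-fold lower in CIA and did not pass.

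Genes of connective-tissue fibroblasts were lower in the members. Of 18 measured fibroblast and tendon genes in control, 10 were lower and 1 higher, and in CIA 6 of 17 were lower and none higher. Postn was 7.17-fold lower in control (6.60 to 7.81) and 15.1-fold in CIA (11.7 to 19.8), and the growth factor receptor Pdgfra 4.18-fold and 2.77-fold. The small leucine-rich proteoglycans, a separate list, were divided. Of 7 measured, 3 were lower and 1 higher (Fmod) in control, and 3 lower and 2 higher (Fmod, Prelp) in CIA. Dcn was 6.34-fold and 7.32-fold lower and Lum 4.59-fold and 5.76-fold. Of 15 fibrous matrix genes, 10 were lower in control, among them Fbln2 (13.0-fold) and Fbn1 (10.4-fold), and none was higher; with TMM factors 8 were lower. In CIA 2 of 15 were lower, Col5a3 and Fbn1, and Fbn2 was higher, with a median log2 ratio of -0.56 against -1.67 in control. Col3a1 was 3.68-fold lower in control (3.60 to 3.75) and 1.88-fold lower in CIA (1.82 to 1.93), where it did not pass. Matrix proteases (13 of 23 lower in control, 8 of 24 in CIA) and inflammatory mediators (10 of 22 lower in each library) were lower as well, while 3 inflammatory genes were higher in control and 1 in CIA. Mmp3 was lower 14.8-fold (13.8 to 15.9) and 6.74-fold (6.21 to 7.33), and the chemokine Ccl7 20.6-fold and 29.1-fold. Of 14 proliferation genes, 9 were lower in control and 4 in CIA.

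CIA members were then compared with control members. Of 1697 measured genes, 26 were higher in CIA (1.53%) and 105 lower (6.19%), with a median log2 ratio of 0.21 over all genes. With TMM factors the median was -0.13, and 9 genes were higher and 143 lower, so that 5.92% of the genes past the limits were higher, against 19.8%. Without the cell rich in macrophage markers, 23 were higher and 94 lower.

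Immediate-early genes, which are transcribed within minutes of a stimulus, were all lower: 17 of 17 measured, with a median log2 ratio of -2.84. Fos ranged from 0 to 11050 CPM in control members (median 2520) and from 0 to 1588 CPM in CIA members (median 150), 9.44-fold lower in sum (7.63 to 11.8). At least 1000 CPM was reached by 43 of 62 control members and 4 of 22 CIA members, and the groups overlapped below 1588 CPM. Jun was 10.7-fold lower (8.22 to 14.1), and Atf3, with 18 UMIs in CIA, 27.5-fold lower (17.4 to 46.6). Heat-shock genes were lower in 7 of 10: Hspb1 ranged from 0 to 28860 CPM in control (median 2794) and from 0 to 3330 CPM in CIA (median 464), 10.4-fold lower (8.96 to 12.1), and the co-chaperone Dnajb1 was 26.3-fold lower (12 to 71.8). Fos and Hspb1 were also lower in CIA in the neighbouring cells; the other genes of the 2 lists were not compared there. Median Fos was 2784 CPM in control and 235 CPM in CIA among Col1a1-low cells, and 264 and 111 CPM among cells with Col1a1 alone. Median Hspb1 was 1302 and 551 CPM among Col1a1-low cells, and 528 and 375 CPM among cells with Col1a1 alone. In the control library, members exceeded the cells with Col1a1 alone in 16 of 21 immediate-early genes, with none lower; in the CIA library 0 of 21 passed in either direction. Dissociation and handling of the 2 libraries cannot be told apart from the treatment.

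Cartilage and mineralisation genes were also lower in the CIA members. Chad, with 1 UMI in CIA against 1809 in control, was 457-fold lower (81.9 to 18049), Col9a2 30.5-fold (13.0 to 94.3), Snorc 7.39-fold (6.13 to 8.97) and Col9a1 2.99-fold (2.48 to 3.64). In the list of cartilage collagens 3 of 5 were lower (5 with TMM factors), and of 16 cartilage matrix proteins 7 were lower and Vcan was higher. Acan was 1.18-fold lower (1.03 to 1.36), Hapln1 1.48-fold (1.39 to 1.57) and Col11a1 1.71-fold (1.61 to 1.82), all within the limits by total scaling. Col11a1 was among the 5 cartilage collagens past the limits with TMM factors. Among bone-forming genes 4 of 6 were lower: Bglap had 0 UMIs in CIA (at least 22.5-fold lower), Smpd3 was 4.12-fold lower (2.68 to 6.66), Alpl 2.93-fold (2.54 to 3.41) and Ibsp 2.61-fold (2.44 to 2.79). The Bglap sum in control rested on few cells. Of 39 control members with at least 1000 CPM of Ibsp, 3 reached 1000 CPM of Bglap, and 0 of the other 23 did. Median Bglap was 0 in both. The Ibsp call was lost without the cell rich in macrophage markers, with all barcodes kept, and with a Col1a1 limit of 20000 CPM, where the log2 ratios were -1.26, -1.30 and -1.17. By the values given above, Chad, Ibsp and Alpl were also lower in CIA than in control among Col1a1-low cells. The falls of Chad, Ibsp and Alpl were therefore not particular to the members. Summed Acan went the other way in Col1a1-low cells, from 444 CPM in control to 933 CPM in CIA. The remaining genes were not compared there.

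The genes higher in CIA members included growth factors and glycoproteins of the matrix. Inhba, a subunit of activin A, ranged from 0 to 515 CPM in control (median 32.3) and from 0 to 5698 CPM in CIA (median 168), 12.3-fold higher in sum (9.55 to 16.1). Tenascin C (Tnc), a glycoprotein of injured and developing tissue, ranged from 0 to 2869 CPM (median 132) and from 62.8 to 8846 CPM (median 926), 4.9-fold higher (4.32 to 5.57). The retinoic acid-binding protein Crabp2 (10.1-fold), Igf1 (7.92-fold), the microfibril protein Fbn1 (4.82-fold), Col5a3 (4.77-fold), Vcan (4.15-fold) and Fstl1 (3.07-fold) followed, each with 84 or more UMIs in CIA. Vcan, Fstl1 and Rarres2 were past the limits by total scaling and not with TMM factors. Col3a1 was 1.98-fold higher (1.91 to 2.06), just under the limit. Summed levels in the control cells with Col1a1 alone were 269 CPM for Inhba, 1049 CPM for Tnc and 1095 CPM for Igf1, each above the control members (71.5, 395 and 43.8 CPM). Among Col1a1-low cells, summed Tnc was 268 CPM in control and 1837 CPM in CIA (medians 0 and 249 CPM). The rise in Tnc was therefore not particular to the members.

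**Figure D4:**
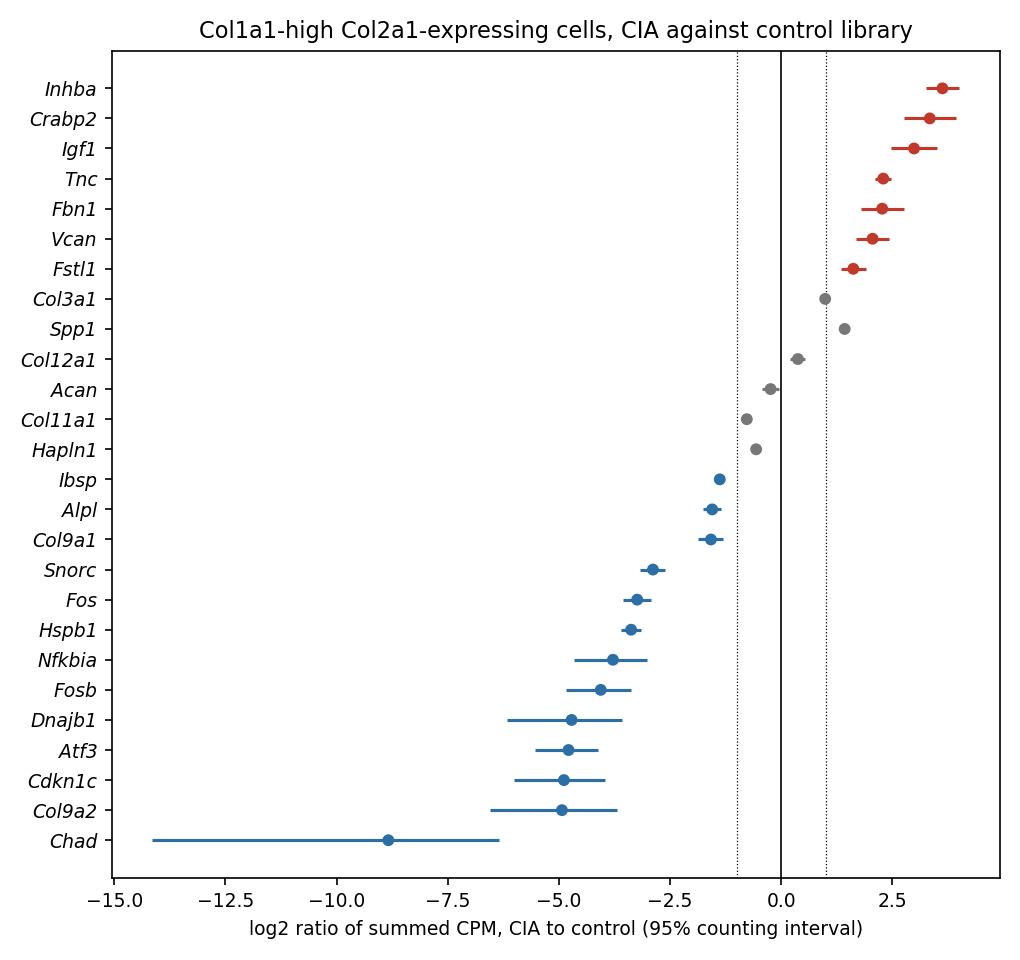
Log2 ratio of summed levels in 22 CIA against 62 control members for 26 genes, with the exact 95% interval for counting error; red genes are higher and blue genes lower by the size rule, grey genes are not past it, and dotted lines mark 2-fold. Chad is lowest and Inhba highest, while Acan, Hapln1 and Col11a1 lie within 2-fold by the total scaling shown. Col11a1 passed as lower with TMM factors.

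The members were not uniform. Within each library they ranged from cells rich in mineralisation genes to cells without them. Ibsp was chosen after its values were seen to order the cells. Across the 62 control members Ibsp rose with Alpl (Spearman 0.80), Panx3 (0.68), Pth1r (0.67) and Col1a1 (0.67), and fell with Ucma (-0.63) and Chad (-0.59). Across the 22 CIA members it rose with Alpl (0.83), Col1a1 (0.81) and Spp1 (0.72) and fell with Tnc (-0.67) and Ucma (-0.61). These are descriptions over cells of 1 library, whose values share that library and the cells' own depth and total.

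Of 62 control members, 39 had at least 1000 CPM of Ibsp, and 35 of those also had 1000 CPM of Alpl, against 4 of the other 23. Chad, Prg4 or Ucma at 1000 CPM or more was found in 4 of the 39 and in 15 of the 23. The 2 sets overlapped in Col1a1, with medians of 93596 CPM (21203 to 342486) in the Ibsp-rich and 25906 CPM (12120 to 140271) in the other cells. Median Hapln1 was 7168 against 1421 CPM and median Acan 1089 against 312 CPM, whereas Col3a1 (6541 against 7238 CPM) and Fmod (2846 against 3164 CPM) lay close together. Of 22 CIA members, 8 had 1000 CPM of Ibsp, and 2 of them had 1000 CPM of Chad, Prg4 or Ucma, against 8 of the other 14. Median Tnc was 437 CPM in the 8 (62.8 to 2649) and 1166 CPM in the 14 (635 to 8846), and median Mmp3 was 431 and 1497 CPM. The Ibsp-rich cells were also deeper, with median UMI counts of 19736 against 11938 in control and 12012 against 8420 in CIA; the part of depth in the split was not tested.

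The fall in Fos and Hspb1 from control to CIA was present on both sides of the Ibsp split. Median Fos was 2348 CPM in control and 171 CPM in CIA among Ibsp-rich cells, and 3203 and 150 CPM among the others. Median Hspb1 was 2923 and 511 CPM, and 2666 and 458 CPM. Ibsp-rich cells were 39 of 62 members in control and 8 of 22 in CIA, and the part of this makeup in the summed ratios between the libraries was not tested. Among Ibsp-rich cells alone, median Ibsp was 8467 CPM in control and 3831 CPM in CIA, and median Alpl 2432 and 1560 CPM, with overlapping ranges (294 to 5975 and 0 to 4664 CPM for Alpl).

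**Figure D5:**
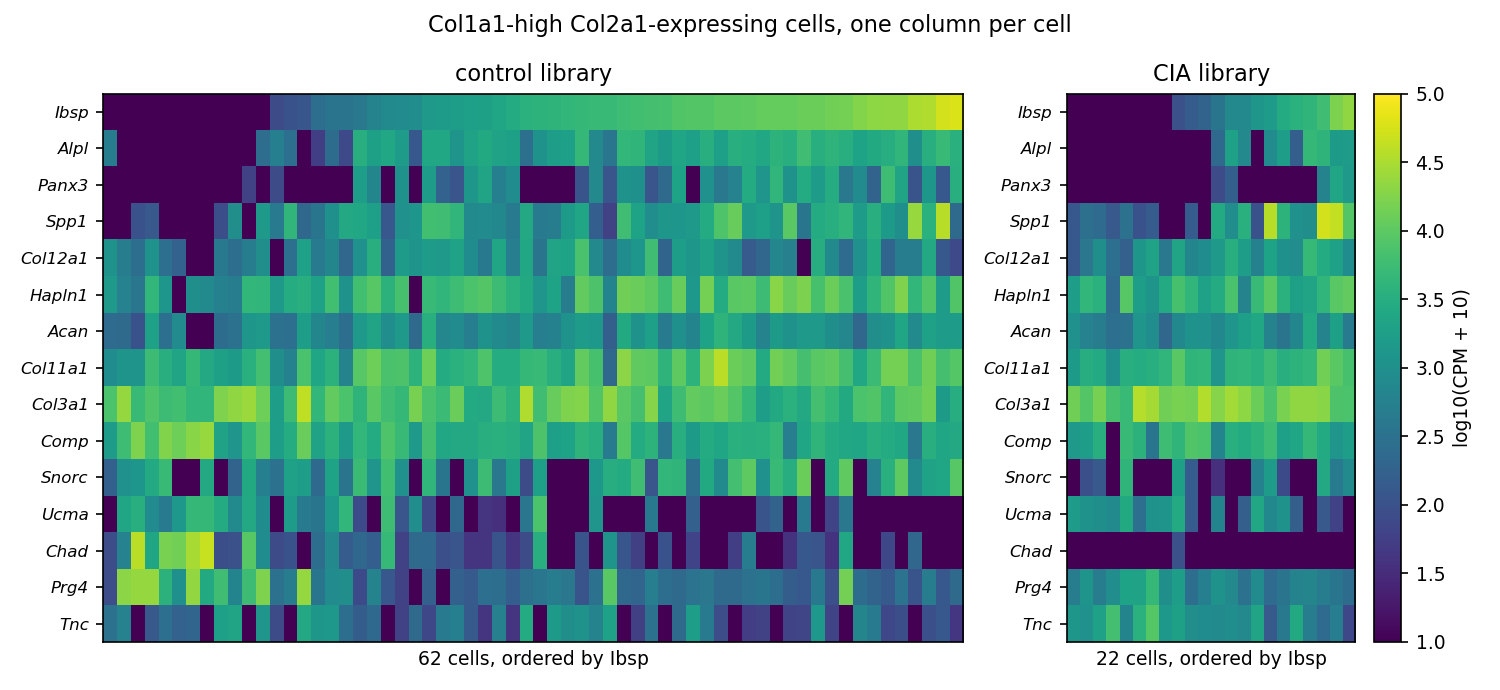
Level, as log10(CPM + 10), of 15 genes in each of the 62 control and 22 CIA members, 1 column per cell, ordered by Ibsp from left to right. In both libraries Alpl is high mainly on the right and Prg4 and Ucma mainly on the left; Tnc is high mainly on the left in CIA and on both sides in control, where Chad is high mainly on the left, while Col3a1, Col11a1 and Hapln1 are present across the order.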

How the data were processed

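The deposited files are matrices of UMI counts per gene and cell, 1 matrix per library, made by the authors; the genome build is mRatBN7.2 per the submitters' processing notes, and neither the aligner nor the counter is named in the sources used here. Cells with at least 200 genes, at most 20% mitochondrial UMIs and no doublet call (Scrublet in scanpy 1.11.5, seed 0) were kept, 13755 of 14078 barcodes. Kept cells had at least 4365 UMIs and a median of 11872 in control and 10470 in CIA.

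CPM is a gene's count divided by the cell's total and multiplied by 1e+06. Ratios are of summed counts, with exact conditional 95% intervals (scipy 1.17.1) that cover counting error only. Named genes are up to 12 per direction with the largest ratio past the rule and a UMI in at least 25% of the cells of the higher side, without LOC or contig names, with up to 4 genes of each list, Acan and Col3a1; any other was chosen after its values were seen. 338 of 348 list entries matched a symbol, some through RefSeq synonyms. TMM factors came from edgeR 4.0.16, used for scaling only. The members and gene lists were chosen with earlier results of these data known.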

Additional observations from a re-analysis of the deposited data

Results flagged for a closer look

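Among Col1a1-high cells, 2 genes moved in opposite directions in the 2 libraries when members were set against cells under the Col2a1 limit. Fbn2, a fibrillin, had a log2 ratio of -1.24 in control, where members had 0 UMIs and the value is a bound, and of 2.99 in CIA, where 11 UMIs lay in 3 members. Nfkbia, the NF-kB inhibitor, had a log2 ratio of 1.48 in control and -1.44 in CIA. The difference between the libraries was not tested.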

How the results depend on the processing

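No paired analysis was possible because each group is 1 library. Of the values recomputed, 0 calls reversed under the settings tried. With genes of at least 10 UMIs, members against Col1a1-low cells gave 393 higher and 435 lower genes in control (main counts 213 and 256) and 65 and 81 in CIA (21 and 21), CIA against control members gave 112 higher (26), and members against control cells with Col1a1 alone gave 571 higher (378). Without the requirement on the richest cell, the counts in CIA against Col1a1-low cells were 38 and 43, and 59 genes were higher in CIA than in control members. With cells weighted alike and the fold limit alone, the counts were 37 and 42 for CIA against Col1a1-low cells, 66 higher for CIA against control, and 578 and 1945 in control and 946 and 1706 in CIA against cells with Col1a1 alone. TMM factors left 9 genes higher in CIA members. The control share of Col1a1-high cells was 23.9% at a limit of 5000 CPM. Of the named or listed genes past the rule, 96 in control and 31 in CIA against Col1a1-low cells, TMM factors kept all 96 and all 31. Leaving Col1a1 and Col2a1 out of the totals kept 89 and 30, and a Col1a1 limit of 20000 CPM kept 93 and 28. For CIA against control members, TMM factors kept 65 of 70 calls and the use of all barcodes kept 63. The limit of 20000 CPM kept 59 of the 68 still measured. Aqp1, among the genes higher in both libraries, had too few UMIs to be measured in CIA without the cell rich in macrophage markers. Against Col1a1-low cells, 773 genes reached 100 UMIs over the 22 and 22 CIA cells, and 3779 over the 62 and 281 control cells.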
